A study of Mus musculus with 10 samples.

Results

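The transcripts of 7 genes were followed through the interscapular brown fat (iBAT) of Control mice and of mice that lack the cardiolipin synthase gene Crls1 in adipocytes (AdCKO). They are Myo5c, Ntrk3, Acsm3, Vat1l, Mmd2, Cpn2 and Aldh9a1, and they were found by their symbols among the 15075 genes of the deposited table, with 1 row for each. The 7 genes were picked because their decrease in AdCKO iBAT stood out, by size or by p, among genes kept outside lists of mitochondrial and lipid synthesis genes. The decrease therefore describes how they were chosen and is given here without a test. The mice were C57BL/6, 20 weeks old and housed at room temperature, with 5 mice and 5 libraries in each group. Both groups were homozygous for a Crls1 allele with an exon between loxP sites, and only the AdCKO mice carried Cre under the adiponectin promoter, which is active in white as well as brown adipocytes (the sample labels call the Control mice wild-type). Values are normalized reads per kb of counted exon, so that levels can be compared between genes.

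Cardiolipin is the signature phospholipid of the inner mitochondrial membrane, and brown adipocytes, which burn fuel for heat, are packed with mitochondria. The 7 genes do not belong to 1 pathway. Ntrk3 encodes TrkC, the receptor tyrosine kinase for the growth factor neurotrophin-3. Myo5c encodes a class V myosin, an actin motor best known for moving secretory vesicles in glandular epithelia. Mmd2 encodes a multipass membrane protein of the progestin and adipoQ receptor (PAQR) family. Acsm3 encodes a medium-chain acyl-CoA synthetase, which is itself a mitochondrial enzyme although the gene was picked outside the mitochondrial lists. Aldh9a1 encodes an aldehyde dehydrogenase that acts in carnitine synthesis and can also make GABA from aminobutyraldehyde. Vat1l encodes a relative of the vesicle amine transport protein VAT1 in the medium-chain reductase superfamily, and its role is little known. Cpn2 encodes the regulatory subunit of carboxypeptidase N, a plasma enzyme that trims basic residues from kinins and complement fragments.

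In AdCKO iBAT, 5 of the 7 genes kept less than 10% of their Control mean, Cpn2 kept 18.3% and Aldh9a1 kept 39.1%. The description as nearly lost thus held for Myo5c (5.27%), Ntrk3 (5.32%), Acsm3 (5.44%), Vat1l (8.32%) and Mmd2 (9.09%), and did not hold for Aldh9a1. Among the 10523 genes whose Control mean reached 10 normalized reads per kb, 5 were left below 10%, which were these 5 genes, 39 were left below 20% and 711 below 50%. All 7 genes passed the filter for testing, a mean of at least 10 in either group, through their Control values. All 5 AdCKO libraries lay below all 5 Control libraries for each of the 7 genes, as they did for 26.4% of the 11244 tested genes, while 24.5% of tested genes separated with AdCKO above Control. At a limma adjusted p under 0.01, 28.0% of tested genes (3152) were lower and 25.6% (2879) higher in AdCKO, and scaling all libraries to an equal sum (equal library totals) instead of the authors' normalization gave 1098 lower and 6811 higher. Since the genes were chosen on this contrast, nothing is read from their own count.

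**Figure D1:**
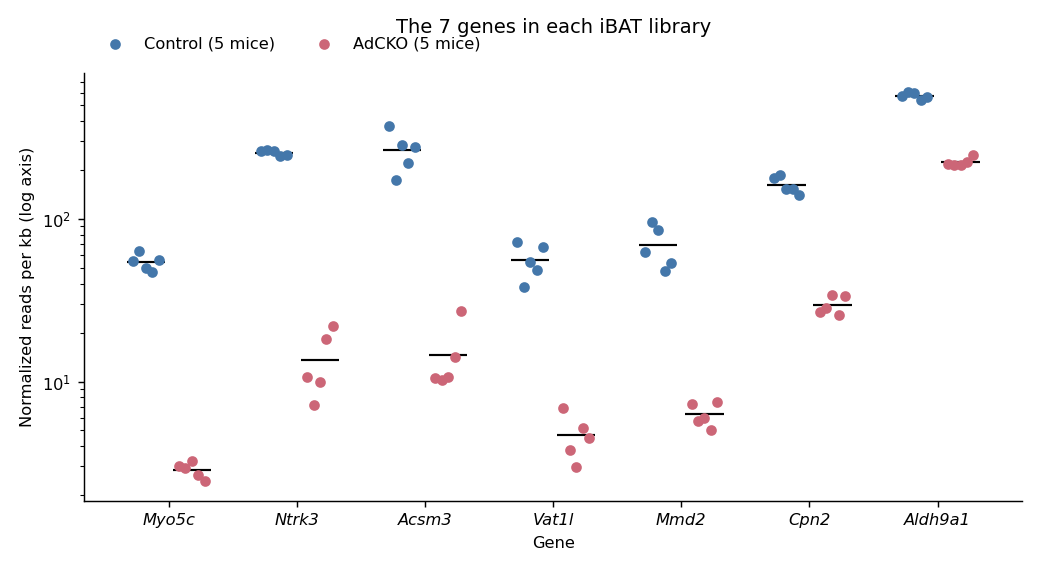
Normalized reads per kb (log axis) of each gene in each library, with replicates 1 to 5 from left to right within a group and a black line at the group mean. The AdCKO points lie below the Control points for all 7 genes, with the widest separation for Myo5c (5.27% of the Control mean left) and the narrowest for Aldh9a1 (39.1%).

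Ntrk3 (NM_008746) spans chr7:85337000-85722724 in mm9, minus strand. Its level was 263, 265, 261, 245 and 246 normalized reads per kb in Control replicates 1 to 5, and 10.6, 7.20, 10, 18.2 and 22 in AdCKO replicates 1 to 5. The Control libraries were nearly level, with a coefficient of variation of 3.80%, whereas the AdCKO libraries spread over 3.05-fold, with replicates 4 and 5 the highest. The mean went from 256 ± 9.72 to 13.6 ± 6.20 (SD, n = 5 each), and on the scale of log2(value + 1) the difference was -4.24 (SE 0.23), the largest decrease among called genes whose groups did not overlap. For Ntrk3, 4 transcripts are annotated in GENCODE, and the table counts the exons of a single RefSeq transcript, so receptor isoforms could not be told apart.

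Acsm3 (NM_016870) spans chr7:126904437-126928410 in mm9, plus strand. Control libraries had 372, 175, 287, 220 and 277 normalized reads per kb and AdCKO libraries 10.5, 10.2, 10.6, 14.1 and 27.0. Acsm3 varied 2.12-fold among Control mice, and AdCKO replicate 5 stood at 10.1% of the Control mean against 3.82% to 5.31% in the other AdCKO libraries. The means were 266 ± 74.4 and 14.5 ± 7.18, a difference of -4.16 (SE 0.26) on the scale of log2(value + 1). The last 1071 bases of the gene's span are shared with Eri2 on the opposite strand, with 872 annotated exon bases in common, and no strand-specific counting is stated. Eri2 itself was at 16.7 ± 2.11 in Control and 13.3 ± 2.28 in AdCKO, and was not called (log2 fold change -0.32, limma adjusted p = 0.0448). In the AdCKO libraries the level of Eri2 ran from 10.21 to 15.61, close to that of Acsm3, and how many reads counted for Acsm3 there come from the shared bases was not tested.

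Myo5c (NM_001081322) spans chr9:75079821-75153257 in mm9, plus strand, and its annotated transcript has 41 exons. Its level was 55.1, 63.4, 49.6, 47.0 and 55.9 normalized reads per kb in Control and 3.03, 2.93, 3.24, 2.65 and 2.43 in AdCKO. Both groups were tight, and the lowest Control library lay 14.5-fold above the highest AdCKO library, the widest gap among the 7 genes. The means were 54.2 ± 6.36 and 2.86 ± 0.318 (SD), a 19.0-fold difference in level. Among lower genes Myo5c had the smallest p, at rank 1.

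Vat1l (NM_173016) spans chr8:116729540-116897970 in mm9, plus strand. Control libraries had 71.8, 38.2, 54.3, 48.7 and 67.4 normalized reads per kb, and AdCKO libraries 6.88, 3.79, 2.98, 5.20 and 4.50. Unlike Ntrk3 and Acsm3, its highest AdCKO library was replicate 1. The group means were 56.1 ± 13.7 and 4.67 ± 1.49, which is a difference of -3.34 (SE 0.20) on the scale of log2(value + 1).

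Mmd2 (NM_175217) spans chr5:143039435-143084706 in mm9, minus strand. Control replicates 1 to 5 had 62.9, 96.4, 85.7, 48.0 and 53.4 normalized reads per kb and AdCKO replicates 7.31, 5.72, 5.99, 5.02 and 7.45. Mmd2 varied more among Control mice (coefficient of variation 30.2%) than among AdCKO mice (16.7%). The means were 69.3 ± 20.9 and 6.30 ± 1.05, and the difference on the scale of log2(value + 1) was -3.23 (SE 0.18).

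Cpn2 (NM_027904) spans chr16:30256465-30267618 in mm9, minus strand. It was at 180, 186, 154, 153 and 140 normalized reads per kb in Control and at 26.8, 28.5, 34.1, 25.6 and 33.5 in AdCKO. The means, 162 ± 19.5 and 29.7 ± 3.87, differ 5.47-fold, and the 2 highest AdCKO libraries were replicates 3 and 5. Aldh9a1 (NM_019993) spans chr1:169280122-169298661 in mm9, plus strand. It was at 570, 602, 593, 538 and 562 in Control and at 218, 216, 216, 225 and 246 in AdCKO, with coefficients of variation of 4.42% and 5.67%. Its means of 573 ± 25.3 and 224 ± 12.7 differ 2.55-fold, so Aldh9a1 entered by its small p (rank 4 among lower genes) and not by its size (rank 289 among called genes without overlap).

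By level, Aldh9a1 came first in both groups. In Control iBAT it stood at the 94.2 percentile of all genes in the table, followed by Acsm3 (87.4), Ntrk3 (86.9), Cpn2 (80.3), Mmd2 (63.2), Vat1l (58.6) and Myo5c (57.8). The libraries of Acsm3 and Ntrk3 overlapped in level, as did those of Mmd2 and Vat1l and those of Vat1l and Myo5c. In AdCKO iBAT the order was Aldh9a1 (86.3), Cpn2 (42.6), Acsm3 (30.9), Ntrk3 (30.2), Mmd2 (21.8), Vat1l (19.0) and Myo5c (15), and all neighbours in that order overlapped except Aldh9a1 and Cpn2. Multiplied by the counted length, the AdCKO values stand for 10.8 to 16 normalized reads per library for Mmd2, 10.9 to 25.2 for Vat1l, 16.4 to 21.8 for Myo5c, 20.5 to 54.5 for Acsm3 and 21.4 to 65.5 for Ntrk3. Cpn2 had 117.4 to 156.1 and Aldh9a1 612.5 to 697.1. These are normalized values and not sequenced reads, and no value in the table is 0, so complete absence could not be read from it.

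**Figure D2:**
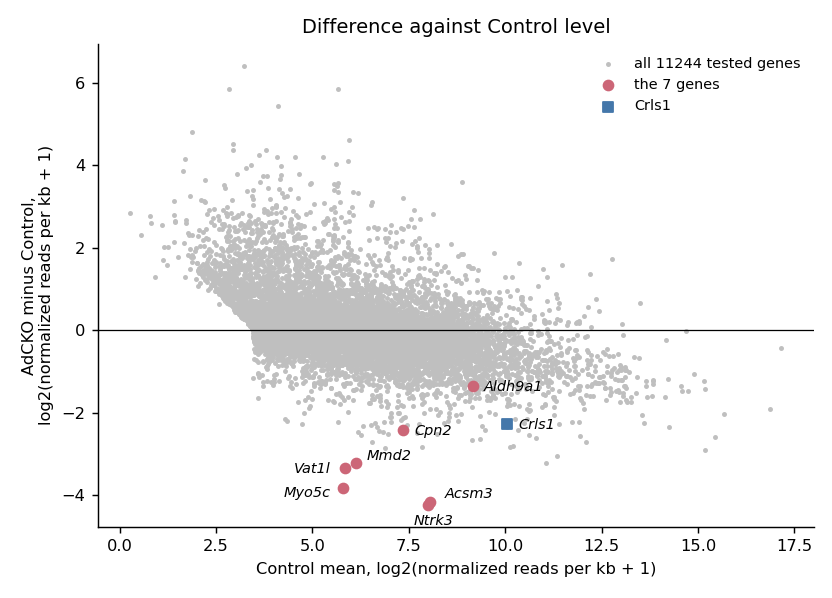
Difference between the groups against the Control mean for the 11244 tested genes (gray), the 7 genes (red) and Crls1 (blue square), both axes on the scale of log2(normalized reads per kb + 1). Ntrk3 (-4.24) and Acsm3 (-4.16) are the lowest points, and Aldh9a1 (-1.35) lies inside the cloud of other genes.

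The choice had no fixed threshold. Ranked by p among lower genes, Myo5c, Cpn2 and Aldh9a1 held ranks 1, 3 and 4. Nat8l at rank 2 (19.9% left) and Suclg2 at rank 5 (37.9% left), a synthase of the brain metabolite N-acetylaspartate and a subunit of a TCA cycle enzyme, were left out, and Chdh (29.5% left) and Pts (33.1% left) followed. Ranked by size of decrease on the scale of log2(value + 1), Ntrk3, Acsm3, Myo5c, Vat1l and Mmd2 held ranks 1 to 5, and the next were Acot11 (-3.22) and Adck3 (-3.06), just below Mmd2 (-3.23). The order depends on this scale. By the share left Myo5c came first, and with a pseudocount of 10 the differences of Myo5c, Mmd2 and Vat1l were -2.31, -2.25 and -2.15. Crls1 itself kept 20.5% of its Control mean, between 813 and 1291 normalized reads per kb in Control libraries and between 193 and 249 in AdCKO libraries (limma adjusted p = 3.53e-08, exact two-sided permutation test of the means, p = 0.0079, the smallest that 5 against 5 allow). Crls1 RNA can persist in cells without Cre and as transcript lacking the deleted exon, and these were not separated.

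The AdCKO library with the highest level differed between the genes. It was replicate 5 for Ntrk3, Acsm3, Mmd2 and Aldh9a1, replicate 3 for Myo5c and Cpn2, and replicate 1 for Vat1l. Replicates 3 and 5 were also the libraries with the most Crls1 (249 and 242) and with the highest summed brown adipocyte markers among AdCKO libraries (41410 and 46730, against 23100 to 30350 in the others). Whether these go together was not tested. Myo5c differed from the rest in that replicate 5 was its lowest library.

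Likeness was measured as the root mean square difference over the 10 libraries of log2(value + 1), after subtracting each gene's Control mean, with smaller values for more similar profiles. The gene most like Ntrk3 was Acsm3, and the reverse held as well (0.33). For Myo5c the 3 most similar genes were Mmd2 (0.51), Vat1l (0.52) and Ntrk3 (0.54). Vat1l was most like Acot11, an acyl-CoA thioesterase (0.48), followed by the mitochondrial carrier gene Slc25a48 (0.49) and Mmd2 (0.50), and Mmd2 was most like Acot11 and Adck3 (0.40 each). The closest profiles to Cpn2 were those of Nat8l (0.22), the acetyl-CoA synthetase gene Acss1 (0.23) and Crls1 (0.23). Aldh9a1 had closer matches than the other 6 genes, namely Eif4e3 (0.05), Acad8 (0.05) and Nadk2 (0.07), and it was far from the nearest of the other 6, Cpn2 (0.76). These profiles include the difference between the groups by which the genes were chosen.

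The iBAT libraries held the markers of brown adipocytes, with Ucp1 at 36912 and Cidea at 18170 normalized reads per kb in the Control mean. In bulk RNA, fewer cells of a type and less RNA per cell cannot be told apart. Of 12 brown adipocyte markers 6 were lower and 0 higher in AdCKO, although 5 were lower and 2 higher under equal library totals and 5 lower and 1 higher under quantile normalization. Their sum went from between 68190 and 92970 in Control libraries to between 23100 and 46730 in AdCKO libraries. Ucp1, Cidea and Cox8b made up most of that sum. Under the authors' normalization Dio2, Elovl3, Ppara, Zic1, Pdk4 and Kcnk3 were not called. Of 12 general adipocyte markers 6 were lower and 2 higher, although 3 were lower and 4 higher under equal library totals and 2 lower and 3 higher under quantile normalization. Their sums lay between 199100 and 220900 in Control and between 146300 and 164500 in AdCKO. Most of these sums was Fabp4, with means of 147241 in Control and 108235 in AdCKO, which was not called. All 8 macrophage markers were higher, with Control sums of 451.2 to 1315 and AdCKO sums of 6229 to 8329, and 7 of 8 tested fibroblast and preadipocyte markers were higher. Of 9 epithelial markers 4 were in the table and 0 passed the filter, with sums of 4.651 to 4.955 in Control and 5.73 to 9.429 in AdCKO, and Epcam, Krt8, Cldn4, Krt5 and Krt14 were not analysed here. The part of cell composition in the decrease of the 7 genes was not tested.

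Skeletal muscle markers were high in AdCKO replicates 1, 2 and 4 (sums of 6644, 24740 and 9665) and low in replicates 3 and 5 (284.8 and 290.4), against 460.2 to 495.9 in Control. Most of the Control sum was Myl1 (mean 366), so a lower sum need not mean less muscle RNA. Acta1 was higher in every AdCKO library (at least 74.47) than in any Control library (at most 56.06). With replicates 3 and 5 alone the list had a median of -0.11, with 1 gene lower and 1 higher. With replicates 3 and 5 alone, the share of the Control mean that was left was 5.24% for Myo5c, 6.26% for Ntrk3, 7.07% for Acsm3, 6.67% for Vat1l, 9.69% for Mmd2, 20.8% for Cpn2 and 40.3% for Aldh9a1. With replicates 1, 2 and 4 alone it was 5.30%, 4.69%, 4.36%, 9.43%, 8.68%, 16.6% and 38.3% in the same order. Every AdCKO library lay below every Control library for each of these genes, so any split of the AdCKO libraries had to show lower levels. The part of muscle RNA in the decrease was not tested.

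**Figure D3:**
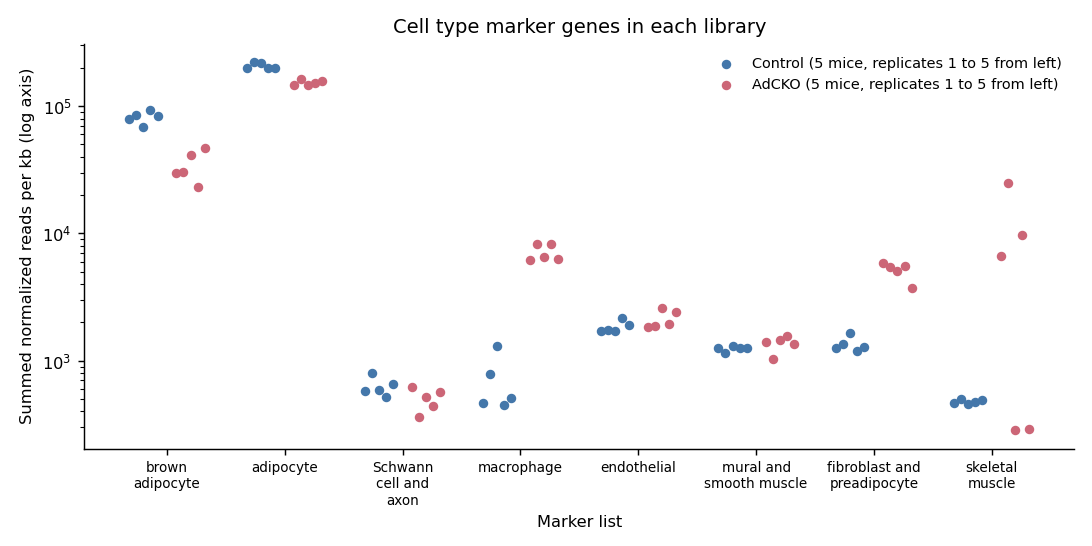
Summed normalized reads per kb (log axis) of the markers of 8 cell types in each library, with replicates 1 to 5 from left to right. Brown adipocyte sums are lower and macrophage sums higher in all 5 AdCKO libraries, and the muscle sum is high in 3 of them.

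Promoter windows of 250 bases before each start site were read from the mm9 genome at the coordinates of the table, for 15073 genes. Of the 7, 4 are shown, those whose window holds no annotated exon base, with capitals on every match to a searched motif on either strand. The windows are chr9:75079571-75079820 (plus strand) for Myo5c, chr7:126904187-126904436 (plus strand) for Acsm3, chr16:30267619-30267868 (minus strand) for Cpn2 and chr1:169279872-169280121 (plus strand) for Aldh9a1.
Myo5c: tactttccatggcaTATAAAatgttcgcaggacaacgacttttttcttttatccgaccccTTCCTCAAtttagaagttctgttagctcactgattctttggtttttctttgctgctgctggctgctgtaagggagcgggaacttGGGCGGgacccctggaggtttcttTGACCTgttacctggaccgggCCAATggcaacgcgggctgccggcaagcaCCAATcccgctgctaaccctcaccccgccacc
Acsm3: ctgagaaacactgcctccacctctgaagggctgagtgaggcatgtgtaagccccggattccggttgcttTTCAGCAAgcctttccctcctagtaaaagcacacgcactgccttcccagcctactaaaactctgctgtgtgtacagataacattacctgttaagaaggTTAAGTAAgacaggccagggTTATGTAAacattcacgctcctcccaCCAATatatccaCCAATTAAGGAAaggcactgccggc
Cpn2: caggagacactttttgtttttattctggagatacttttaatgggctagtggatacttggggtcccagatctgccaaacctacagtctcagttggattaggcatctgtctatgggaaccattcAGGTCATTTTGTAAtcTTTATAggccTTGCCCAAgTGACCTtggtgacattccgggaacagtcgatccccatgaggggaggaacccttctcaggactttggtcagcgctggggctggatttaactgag
Aldh9a1: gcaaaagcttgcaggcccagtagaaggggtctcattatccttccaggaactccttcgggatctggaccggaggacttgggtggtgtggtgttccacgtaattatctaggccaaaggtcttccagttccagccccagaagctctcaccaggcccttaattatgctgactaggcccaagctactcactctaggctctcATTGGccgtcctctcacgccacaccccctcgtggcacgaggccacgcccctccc
The C/EBP pattern TTNCNNAA, which the adipocyte regulators of the C/EBP family can bind, was present in the windows of Myo5c, Acsm3, Vat1l and Cpn2, or 4 of 7, and in 28.7% of all windows. Acsm3 held 4 matches, the nearest from 14 to 21 bases before the start site. The nuclear receptor core AGGTCA was present in Myo5c and Cpn2, 2 of 7 against 10.9% of all windows, and Cpn2 held it at 2 places, from 123 to 128 and from 88 to 93 bases before the start. In Myo5c it lay from 77 to 82 bases before the start. CCAAT was present in Myo5c, Acsm3, Mmd2 and Aldh9a1, 4 of 7 against 35.3%.

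TATAAA was found in Myo5c and Cpn2 (7.34% of all windows), from 231 to 236 and from 107 to 112 bases before the start. In Myo5c it lay on the strand of the gene and in Cpn2 on the opposite strand. Whether these letters act as a TATA box was not tested. The GC box GGGCGG was found in Myo5c and Mmd2, 2 of 7 against 56.0% of all windows. The direct repeat of AGGTCA with 1 base between, bound by PPAR receptors, the ERR pattern TNAAGGTCA, the C/EBP and ATF composite TGATGNAA, the cAMP response element TGACGTCA, the EBF palindrome, the NRF1 palindrome and the E-box CACGTG were found in 0 of the 7 windows. The direct repeat and the ERR pattern both hold AGGTCA, so their matches would overlap with it. Among all 15073 windows these patterns were present, in that order, in 0.0464%, 0.723%, 2.03%, 2.50%, 0.929%, 1.34% and 7.88%. The windows did not share a base composition, with GC contents from 47.6% for Cpn2 to 69.6% for Ntrk3 around the median of 59.2% for all windows, and from 3 CpG in Cpn2 to 26 in Ntrk3 around a median of 14. The Ntrk3 window lies wholly within annotated exon sequence.

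The families and pathways around the 7 genes were tested in the same fit. The rule that chose the 7 did not use them, but the lists were drawn up with earlier results of these data known. Their shares are therefore not independent of the data. Of 155 relatives, 136 were in the table and 105 were tested. Lower in AdCKO were 52 (49.5%, against 28.0% of all tested genes), 30 were higher (28.6%, against 25.6%) and 23 were not called. The median log2 fold change was -0.26, beside -0.01 for all tested genes. Relatives with a Control mean below 10 passed the filter only through a higher AdCKO mean, so they could add only to the higher side. Among them were Aldh18a1, Aldh1b1, Aldh1l2, Slc6a13, Shc2 and Myo1f. By list, the share lower ran from 18.2% of the carboxypeptidases and kinin genes to 83.3% of the reductases and related genes and 100% of the acyl-CoA genes. Under equal library totals the median of all genes moved up by 0.47, and 32 relatives were lower and 49 higher, so the direction of weak changes depends on the scaling.

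Class V myosins fell unequally. Myo5b, the motor of recycling endosomes, fell from 71.7 ± 10.9 to 12.7 ± 5.07 normalized reads per kb (log2 fold change -2.46, SE 0.20, limma adjusted p = 4.82e-07). Myo5a, the motor of melanosomes and neuronal vesicles, was at 108 ± 3.62 and 87.1 ± 7.57 (-0.31, limma adjusted p = 0.00187), and under equal library totals its log2 fold change was 0.17 and not called. With only AdCKO replicates 3 and 5 kept in that group, Myo5a was not called either, at nearly the same estimate (-0.32, limma adjusted p = 0.0154). Among the unconventional myosins and class V partners, 8 of 22 tested were lower and 6 higher, Myo5a and Myo5b included, and the median of -0.06 became 0.42 under equal library totals and 0.02 under quantile normalization. The actin nucleator Spire1 (-0.75), which works with class V myosins, and Myo10 (-0.53) were among those lower. Myo1f (2.65), a myosin of leukocytes, Myo1e (1.49) and Myo9b (0.71) were among those higher, beside the rise of macrophage markers given above. Under equal library totals 2 of these 22 genes were lower and 14 higher, and Myo10 was not called. With AdCKO replicates 3 and 5 alone, 4 were lower and 5 higher.

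In the neurotrophin pathway the receptor gene Ntrk2 fell, and Ntf3 was not called. Ntrk2, which encodes TrkB, the receptor for brain-derived neurotrophic factor, fell from 75.2 ± 6.08 to 12.4 ± 3.37 normalized reads per kb (log2 fold change -2.54, SE 0.15, limma adjusted p = 6.41e-08). Its Control and AdCKO libraries did not overlap. Ntf3, the ligand of TrkC, was at 14.2 ± 1.37 and 14.1 ± 0.980 (0.00, SE 0.09, limma adjusted p = 0.987). Bdnf (0.611 in Control, 0.664 in AdCKO), Ntf5 (0.498 and 0.553) and the shared receptor Ngfr (5.35 and 9.35) were below the filter and not tested. Among ligands and receptors tested, the sorting receptor sortilin, Sort1, was also lower (-0.87, limma adjusted p = 2.15e-06).

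Of the 19 tested genes of this list, 10 were lower and 3 higher, and the median of -0.28 became 0.20 under equal library totals. The adaptor Sh2b2, which links receptor tyrosine kinases including the insulin receptor to signaling, fell from 913 ± 117 to 404 ± 79.6 (-1.18). Higher were the adaptor Grb2 (0.59), the phosphatase receptor Ptprs (1.39) and Shc2 (0.81). Shc2 was not called under quantile normalization (0.42, limma adjusted p = 0.0228) or with AdCKO replicates 3 and 5 alone (0.53, limma adjusted p = 0.0136). Under equal library totals 4 genes of the list were lower and 9 higher, and with AdCKO replicates 3 and 5 alone 6 were lower and 2 higher. Ntrk2 and Ntrk3 are also expressed in nerve and its glia. Of 7 tested Schwann cell and axon markers 6 were higher and 1, S100b, was lower (486 to 187), and the sums ran from 521 to 794.5 in the Control libraries and 364.2 to 620.3 in the AdCKO libraries, S100b being the most abundant of them in the Control mean.

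**Figure D4:**
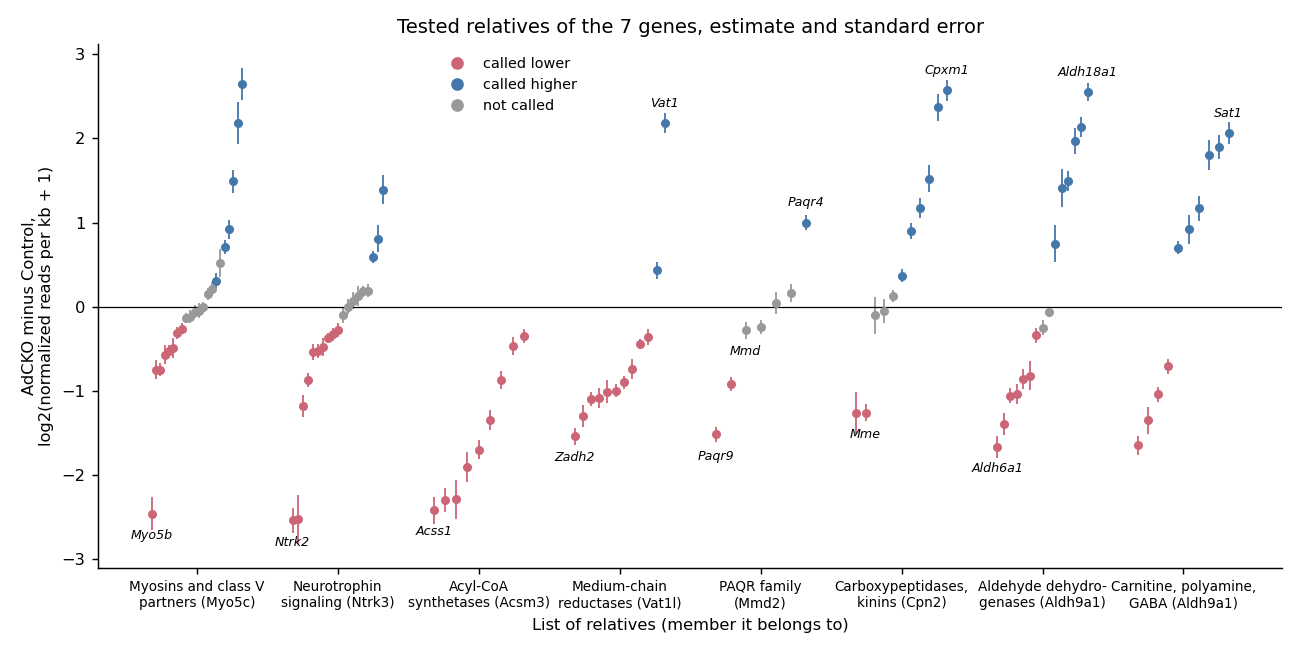
Log2 fold change (AdCKO minus Control, on log2(normalized reads per kb + 1)) and standard error of each tested relative, grouped by list and colored by call. All 9 tested genes of the acyl-CoA list lie below 0 under the authors' normalization (Acsf2 and Aasdh do not under equal library totals), whereas Vat1 (2.18) and Aldh18a1 (2.55) lie far above it in lists that also hold lower genes.

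All 9 tested genes of the list of acyl-CoA synthetases and related genes were lower, with a median of -1.70. The list also holds Acadm, a medium-chain acyl-CoA dehydrogenase (-1.35), and Acot13, an acyl-CoA thioesterase (-0.87), so 7 of the 9 are synthetases. It leaves out the long-chain synthetases of the Acsl family, so it does not describe acyl-CoA synthetases in general. Acss3, a propionyl-CoA synthetase, fell from 174 ± 19.3 to 35.1 ± 7.63 normalized reads per kb (-2.30, SE 0.14, limma adjusted p = 8.36e-08). Acsf3, the mitochondrial malonyl-CoA synthetase, fell from 740 ± 64.1 to 229 ± 41.1 (-1.70) and Acss1 from 717 ± 144 to 134 ± 32.4 (-2.42). The closest relative of Acsm3 in the table, Acsm5, was at 6.89 in Control and 4.4 in AdCKO, below the filter, and Acsm1 was not analysed here. Under equal library totals 7 of the 9 were called lower and 0 higher, and Acsf2 (0.01) and Aasdh (0.12) were not called.

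Vat1, the namesake of Vat1l, went the other way. It rose from 158 ± 15.6 to 726 ± 140 normalized reads per kb (log2 fold change 2.18, SE 0.12, limma adjusted p = 3.42e-08). The groups did not overlap, while 10 of the 12 tested genes of its list were lower. Among those were Zadh2 (-1.54), Rtn4ip1 (-1.10) and Ptgr2 (-1.0). The list also holds alcohol and sorbitol dehydrogenase genes and Tecr, an enoyl-CoA reductase outside the superfamily. It is therefore not a list of medium-chain reductases alone. Ptgr1, the only other higher gene of the list, went from 11.8 ± 1.41 to 16.2 ± 0.819 and was not called under quantile normalization (0.05, limma adjusted p = 0.701) or with AdCKO replicates 3 and 5 alone (0.40, limma adjusted p = 0.029). The median of the list was -0.95, and under equal library totals 7 were lower and 2 higher.

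In the PAQR family, Mmd, the closest relative of Mmd2, was far more abundant than Mmd2 and was not called (2154 ± 218 in Control, 1780 ± 221 in AdCKO, -0.28, limma adjusted p = 0.0294). Of 7 tested PAQR genes 2 were lower and 1 higher, and under equal library totals 2 were lower and 4 higher, with the median going from -0.24 to 0.24. Adipor2, a receptor for adiponectin, fell from 2681 ± 214 to 1416 ± 90.2 (-0.92), and Paqr9 from 498 ± 63.5 to 172 ± 11.7 (-1.52). Paqr4 rose from 37.9 ± 5.04 to 76.4 ± 3.78 (1.00, limma adjusted p = 1.19e-06).

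Carboxypeptidase N needs its catalytic subunit, and Cpn1, which encodes it, was not analysed here. Of 11 tested regulatory carboxypeptidases and kinin genes 6 were higher and 2 lower (median 0.37). Higher were Cpxm1 (2.57), the matrix-associated Aebp1 (2.37) and Ace (1.17), the angiotensin-converting enzyme, which also degrades bradykinin. Lower were Mme, the peptidase neprilysin, from 328 ± 35.9 to 137 ± 19.0 (-1.26), and the kininogen gene Kng2, from 456 ± 87.8 to 202 ± 98.0 (-1.26). The groups overlapped for Kng2, which was not called with AdCKO replicates 3 and 5 alone (-0.76, limma adjusted p = 0.0261). The kinin receptors Bdkrb1 and Bdkrb2 were at about 1 normalized read per kb or less in both groups and were not tested.

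Aldehyde dehydrogenases were divided, with 7 of 15 tested lower and 6 higher, and under equal library totals 5 were lower and 7 higher and the median of -0.25 became 0.23. The lower ones included Aldh6a1 (-1.67), which acts in valine breakdown, Aldh5a1 (-1.06), which removes succinic semialdehyde in GABA breakdown, and Aldh4a1 (-1.40), which acts in proline breakdown. The higher ones included Aldh18a1, which starts proline synthesis, from 7.69 ± 1.27 to 49.7 ± 4.03 (2.55, SE 0.11, limma adjusted p = 5.75e-09), Aldh1b1 from 4.46 ± 0.269 to 23.2 ± 3.76 (2.14) and the mitochondrial folate enzyme Aldh1l2 from 2.55 ± 0.373 to 13.1 ± 2.68 (1.97). Aldh18a1, Aldh1b1 and Aldh1l2 passed the filter only through their AdCKO means.

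Around the carnitine step of Aldh9a1, the carnitine transporter of the plasma membrane, Slc22a5, fell from 220 ± 21.9 to 107 ± 12.8 normalized reads per kb (-1.04), and the mitochondrial carnitine carrier Slc25a20 fell from 3937 ± 630 to 1563 ± 337 (-1.35). Slc22a4, of the same transporter family as Slc22a5, went the other way, from 12.3 ± 1.91 to 29.1 ± 6.01 (1.17, limma adjusted p = 2.39e-05). The other carnitine synthesis enzymes, Tmlhe and Bbox1, were not analysed here. Of the 10 tested genes in this list of carnitine, polyamine and GABA steps 4 were lower and 6 higher (median 0.81). The monoamine oxidases split, with Maob lower (435 ± 58.2 to 138 ± 17.9, -1.65) and Maoa higher (30.8 ± 5.39 to 118 ± 21.0, 1.90). Sat1, the polyamine acetyltransferase, rose from 242 ± 18.7 to 1026 ± 236 (2.06), and the GABA transporter Slc6a13 rose from 5.35 ± 0.788 to 21.7 ± 6.41 (1.80).

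The 3 nearest tested genes on each side of each of the 7 gave 42 neighbours, of which 15 were lower (35.7%, against 28.0% of all tested genes), 6 higher (14.3%, against 25.6%) and 21 not called. Their median log2 fold change was -0.16, beside -0.01 for all tested genes, and under equal library totals 5 were lower and 19 higher (3 were higher under quantile normalization). Distances between start sites ran from 15.72 to 4023 kb. Next to Cpn2, at 15.72 kb upstream, Lrrc15, which encodes a leucine-rich repeat membrane protein, fell from 25.4 to 4.37 normalized reads per kb (-2.28, limma adjusted p = 4.43e-07), and 688.2 kb downstream Opa1, which encodes the fusion protein of the inner mitochondrial membrane, was lower (-1.04). Vat1l had the peroxisomal CoA hydrolase gene Nudt7 at 72.07 kb (-1.14), and the transcription factor gene Maf at 1501 kb was the most strongly higher of the neighbours (1.76). Mmd2 had Wipi2 at 20.83 kb (-1.02) and Radil at 57.65 kb (-0.85), the latter not called under equal library totals.

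Near Acsm3, Gprc5b (-1.07) at 765.7 kb and 2610020H08Rik (-0.45) at 33.21 kb were lower, the latter with a log2 fold change of 0.01 under equal library totals, whereas Thumpd1 at 40.12 kb was not called (0.10, limma adjusted p = 0.217). Near Ntrk3, the mitochondrial ribosomal protein genes Mrps11 (-0.63) and Mrpl46 (-0.56) were lower, and neither was called under equal library totals. Near Myo5c, Mapk6 (1.35) and Leo1 (0.39) were higher, Leo1 not being called with AdCKO replicates 3 and 5 alone, and Myo5a, the paralog of Myo5c, lies 160.8 kb upstream with the values given above. Near Aldh9a1, Tmco1 (-0.52) and Rxrg (-0.50), which encodes a retinoid X receptor, were lower but not called under equal library totals, and Mgst3 at 43.81 kb was not called. Apart from Lrrc15, no neighbour had a log2 fold change below -1.14.

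**Figure D5:**
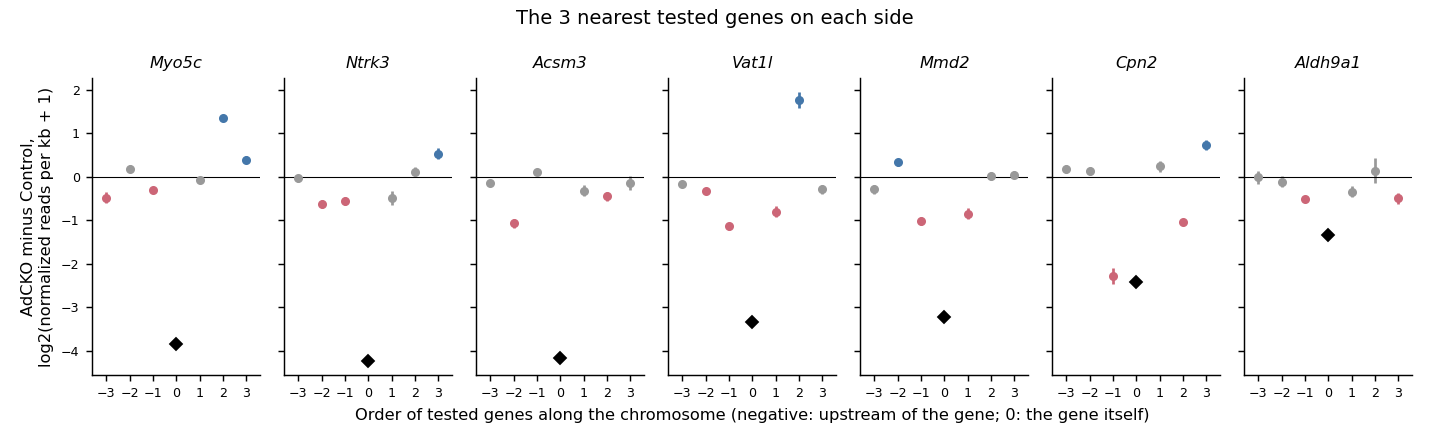
Log2 fold change (AdCKO minus Control, on log2(normalized reads per kb + 1)) and standard error of the 3 nearest tested genes on each side of each gene, in order along the chromosome, with the gene itself as a black diamond at 0 (colors: red, called lower; blue, called higher; gray, not called). Lrrc15 (-2.28), next to Cpn2 (-2.41), lies close to its gene, and the other neighbours lie at or above -1.14.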

How the data were processed

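RNA from the iBAT of 5 Control and 5 AdCKO mice was compared, with groups and replicate numbers from the sample labels. The deposited signal is given as normalized reads per kb of exon. The authors sequenced polyadenylated RNA (TruSeq), aligned it with STAR (mm9), used iRNA-seq for exon counts and DESeq2 for normalization. A further moderation of low values is not given in the sources used here. None of the values is 0 and low values were seldom tied within a library, so whole reads were not recovered and no count model was used. The sequencing depth is unknown. Normalized reads summed to 7615403 to 8171138 per Control library and 5419800 to 5843024 per AdCKO library. Columns with the authors' own fold changes and adjusted p-values, and their lists of changed genes, were not used.

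Values were compared as log2(value + 1) with limma 3.58.1 in R 4.3.3 (eBayes with intensity trend, two-sided, Benjamini-Hochberg) on 11244 genes whose mean reached 10 in either group, at an adjusted p of 0.01. Differences on this scale understate the change of low genes. DESeq2, which the study applied to counts, was not run. In simulated data on 11244 genes, 90 of 100 genes changed by 1 on the log2 scale and 97 of 100 changed by 2 were recovered, with 2 false calls. The members and lists were chosen with earlier results of these data known. Named genes are the members, close paralogs, pathway ligands and receptors, up to 3 called relatives per list and direction by p, up to 2 called neighbours per member, overlapping genes, the 3 most similar profiles and the genes next in rank. Thumpd1, Mgst3, S100b, Slc22a4 and the kinin receptors were named after their values were seen. Same-numbered mice did not deviate together (correlations from -0.268 to 0.098), so the numbers were not treated as pairs. Promoter windows came from the mm9 genome and gene models from GENCODE vM1. Of the 7 windows, 6 were found within a RefSeq promoter sequence of GRCm38. Alternatives were another pseudocount, filter, normalization, variance model, array weights, a replicate block, an adjusted p of 0.05 and each library left out. Leaving out the 3 AdCKO libraries with high muscle markers was added after seeing the data. That fit has 2 AdCKO libraries against 5 Control libraries and called fewer genes (2175 lower and 2104 higher). A call lost in it need not mean a smaller change. Figures were drawn with matplotlib 3.10.9. Some items are not reported here.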

Additional observations from a re-analysis of the deposited data

How the results depend on the processing

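The differences of the 7 genes, whose direction was part of their choice, were recomputed only with other pseudocounts, normalizations, array weights and sets of libraries. Their median, -3.34, became -2.25 with a pseudocount of 10 and -2.90 under equal library totals, and lay between -3.46 and -3.22 when any 1 library was left out. Crls1 stayed called, between -2.36 and -1.79, and between -2.36 and -2.19 with a library left out. Equal library totals left 1098 genes lower and 6811 higher in place of 3152 and 2879, moved relatives to 32 lower and 49 higher, and neighbours to 5 lower and 19 higher. Higher neighbours numbered 3 under quantile normalization and 3 with AdCKO replicates 3 and 5 alone. With each library left out, lower and higher genes ran from 2879 to 3066 and from 2648 to 2874, relatives from 47 to 52 and from 28 to 31, and neighbours from 13 to 15 and from 5 to 6. With the replicate number as a block, 2838 genes were lower and 2592 higher, 48 relatives lower and 29 higher, and 15 neighbours lower and 5 higher. Depth before normalization is unknown, so the counting error of the low AdCKO values could not be given.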
